A study of Mus musculus with 3 samples.

Results

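In the single-cell library of cells sorted as negative for an HCN4 green fluorescent protein (GFP) reporter, 506 of 3036 barcodes with at least 500 genes were fibroblasts that read Ly6a, Clec3b, Gdf10 or Penk. The 3 libraries of the series held 8072 barcodes. Each chosen barcode had at least 1% of its unique molecular identifiers (UMIs) in the collagen genes Col1a1, Col1a2 and Col3a1, at least 5 UMIs summed over the 4 genes, under 5 UMIs of the mural gene Rgs5, under 3 of the smooth muscle gene Actg2 and under 4 of the endothelial genes Pecam1 and Cdh5 together. They are called gated fibroblasts here. The 700 fibroblasts that passed the other gates with fewer than 5 UMIs of the 4 genes are called the remaining fibroblasts. The gated fibroblasts were 16.7% of the barcodes (exact 95% binomial interval 15.4% to 18.0%) and 42.0% of the 1206 fibroblasts (39.2% to 44.8%).

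All animals were ICR mice at postnatal day 2 with the genotype HCN4H2BGFP, a knock-in that puts a nuclear GFP under the gene of the pacemaker channel HCN4. The GFP-negative and GFP-positive libraries were sorted on that reporter from the sinoatrial node region, the atrial tissue that holds the pacemaker cells, and the third library was not sorted. The unsorted library is titled RA while its tissue label also gives the sinoatrial node region, so it is called RA here. Each group was 1 library with no stated number of animals, so no test was possible, and every interval covers counting error only. The cells were chosen by their reads of the 4 genes and then compared over other genes in the same cells, so the differences between gated and remaining fibroblasts are descriptions of the choice.

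Adventitial fibroblasts are the connective tissue cells of the outer coat of vessels and of the sheets around organs, and in adult mice they are known by Pi16, Dpp4, Ly6a, Cd34 and Clec3b. They lay down collagen and elastic microfibrils, supply growth factors and retinoid, and are described in mice as a source of more specialised fibroblasts. Resident fibroblasts of the heart wall are known instead by the transcription factor Tcf21 and arise in large part from the epicardium. Penk encodes the precursor of enkephalin opioid peptides, Gdf10 a secreted member of the transforming growth factor beta family, Clec3b the plasminogen-binding protein tetranectin, and Ly6a the surface protein Sca-1.

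Median depth was similar in the gated and the remaining cells, while 36 remaining cells and 1 gated cell had under 3000 UMIs. The part of depth in the choice was not tested. The median was 11508 UMIs in the gated and 11212.5 in the remaining fibroblasts, with 3012 and 3054.5 genes. Total UMIs per library were 38204709 in GFP-negative, 19975326 in RA and 50416748 in GFP-positive. Between 8 and 19 barcodes were shared by any pair of libraries, and 3 gated cells had such a barcode. Levels are in CPM, the UMIs of a gene per 1000000 UMIs over all cells of a class. The summed level of 8 endothelial markers was 45.7 CPM in the gated and 65.2 CPM in the remaining cells, of 8 cardiomyocyte markers 226 and 536 CPM, of 8 glial markers 73.2 and 170 CPM, and of 8 macrophage markers 56.3 and 36.6 CPM. Cell medians in the gated and remaining cells were 180 and 213 CPM for the cardiomyocyte markers and 47.0 and 0 CPM for the glial ones. They were 0 in both classes for the macrophage markers. The highest remaining cell had 59943 CPM of cardiomyocyte markers, and the highest for glial markers had 14286 CPM. The highest gated cell for macrophage markers had 4287 CPM. Of 8 mesothelial markers, Msln and Krt8 were at 0 in the gated cells, and the summed level was 66.7 CPM against 60.5 CPM. The 9 smooth muscle or pericyte markers summed to 191 and 232 CPM, the 8 other leukocyte markers to 36.7 and 51.1 CPM and the 8 neuronal markers to 9.99 and 10.5 CPM. The 6 erythroid markers summed to 7624 and 4426 CPM, with cell medians of 2872 and 2936 CPM. The part of these other transcripts in the results was not tested, except where a value is given.

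Promoter sequence was printed for 2 genes. Gdf10 was the only one of the 4 gate genes with a window at hand, and Pi16 had the highest ratio of the adventitial list. Both are RefSeq windows of mouse build GRCm38.p6 on the plus strand, from 250 bases before to 50 bases after the start of the gene, at chr14:33923337-33923636 and chr17:29318632-29318931. Capitals mark the motifs found.
Gdf10: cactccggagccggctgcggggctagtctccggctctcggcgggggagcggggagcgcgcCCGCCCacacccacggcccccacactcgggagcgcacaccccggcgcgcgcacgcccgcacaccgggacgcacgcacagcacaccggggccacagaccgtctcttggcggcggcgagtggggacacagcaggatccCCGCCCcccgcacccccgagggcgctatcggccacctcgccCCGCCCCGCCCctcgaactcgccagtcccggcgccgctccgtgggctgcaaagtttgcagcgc
Pi16: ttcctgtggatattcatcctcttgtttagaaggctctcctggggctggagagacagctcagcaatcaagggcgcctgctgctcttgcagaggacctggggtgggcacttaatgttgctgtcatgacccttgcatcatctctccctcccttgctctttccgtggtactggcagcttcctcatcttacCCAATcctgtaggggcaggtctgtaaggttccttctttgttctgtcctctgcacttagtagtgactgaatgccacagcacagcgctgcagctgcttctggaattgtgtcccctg
Both strands were searched for 6 motifs, the TATA box (TATAAA), the CCAAT box, the GC box (GGGCGG), the AP-1 site (TGACTCA), the full cyclic AMP response element (TGACGTCA) and a variant of that element (TGCGTCA). The Gdf10 window held GGGCGG 4 times on the minus strand, the last 2 sharing a base, and the Pi16 window held CCAAT 1 time on the plus strand. Of the 32851 promoter windows searched, 35.7% held GGGCGG and 37.4% held CCAAT, so each match is of a common kind. The same windows held the TATA box in 13.6%, the AP-1 site in 5.20%, the full response element in 1.79% and its variant in 2.12% of cases.

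Of the 4 genes, Clec3b gave the largest share of the reads that chose the cells. Clec3b had 5662 UMIs in the gated cells (47.6% of the summed UMIs), Gdf10 had 2724 (22.9%), Ly6a had 2035 (17.1%) and Penk had 1476 (12.4%). A UMI of Clec3b was read in 80.4% of the gated cells, of Gdf10 in 77.3%, of Penk in 59.9% and of Ly6a in 33.8%. So Ly6a, which heads the usual name of such cells, was read in the smallest share of them. All 4 genes were read in 93 cells, 3 in 151, 2 in 185 and a single gene in 77.

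The sum of the 4 genes ran from 5 to 182 UMIs per gated cell with a median of 16 (quartiles 10 and 28). Just outside the gate, 73 cells had 3 UMIs and 43 had 4, and just inside it 25 had 5 and 26 had 6. Agtr2 took no part in the gate, but it is a marker chosen for these cells with earlier results of these data known. It was read in 41.1%, 37.2%, 48.0% and 57.7% of those 4 sets of cells. Tbx20 was at 127, 112, 70.9 and 69.3 CPM in the same order. By CPM, Tbx20 thus had its largest step between 4 and 5 UMIs, in sets of 43 and 25 cells. The share of cells with Tbx20 had no drop there, at 41.9% with 4 UMIs and 44.0% with 5. That share had its largest step between 3 and 4 UMIs, from 53.4%, so the values do not mark a break at the gate. Mfap5 was at 597, 677, 675 and 752 CPM in the same order, with near-equal levels at 4 and 5 UMIs.

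**Figure D1:**
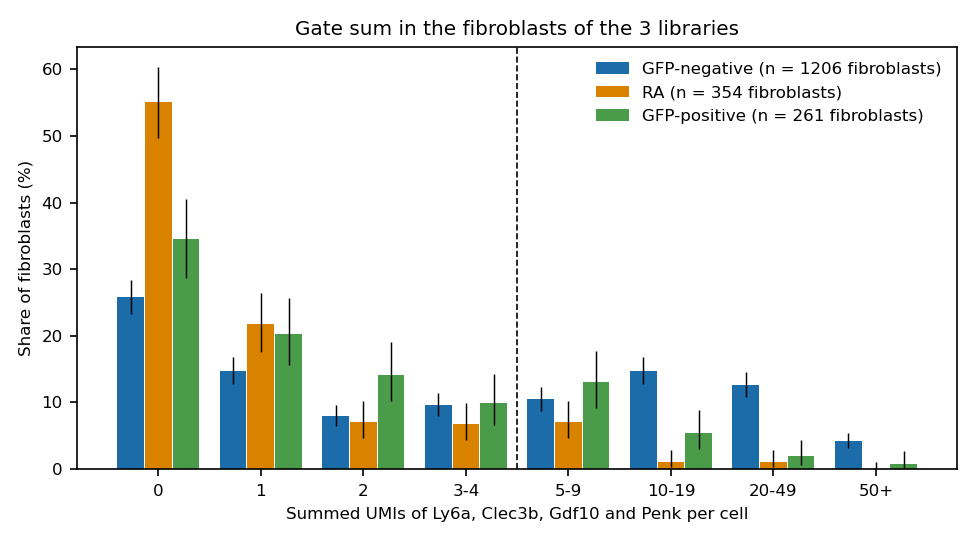
Share of the fibroblasts of each library (vertical axis, percent, bars with exact 95% binomial intervals) by the summed UMIs of Ly6a, Clec3b, Gdf10 and Penk per cell (horizontal axis); the dashed line is the gate of 5 UMIs. In GFP-negative 4.15% of fibroblasts had 50 UMIs or more, against 0 of 354 in RA.

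The gated cells were mostly in the GFP-negative library. The same gates kept 33 of 354 fibroblasts of RA (9.32%, 6.5% to 12.8%) and 55 of 261 of GFP-positive (21.1%, 16.3% to 26.5%). Penk was read in none of the 33 or of the 55, and Ly6a had 3 UMIs in the 33. In the 55 cells of GFP-positive the mesothelial markers summed to 5263 CPM, and 51 of the 55 had at least 10 UMIs of them, against 0 of the 506. With fewer than 50 gated cells, RA was not compared over genes, and levels are given for all of its 354 fibroblasts instead. The reporter transcript GFP had 1 UMI in 1 of the 506 cells, 5 UMIs in 4 of the 700 and 19 UMIs in 16 of the 55.

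Against the remaining fibroblasts, the gated cells had higher levels of 12 of 18 measured adventitial genes and 5 of 9 insulin-like growth factor genes, and lower levels of 4 of 9 contractile genes. Pi16, Scara5, Mfap5, Ntrk2, Agtr2 and Hoxa5 were among the higher genes, and Tbx20, Gata4 and Tagln among the lower ones. A gene is called higher or lower here where the ratio of its levels is at least 1.5. Among 7508 genes at a mean of at least 10 CPM outside the gates, 431 were higher (5.74%) and 471 lower (6.27%), 12.0% in either direction, with a median log2 ratio of -0.05. Taking the mean over cells of each cell's CPM in place of the sum gave 418 higher and 809 lower. The genes counted for each list below passed the same floor of 10 CPM. A gene could pass it through 1 class alone, and such a gene had to differ, so the list counts are descriptions and support nothing further.

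**Figure D2:**
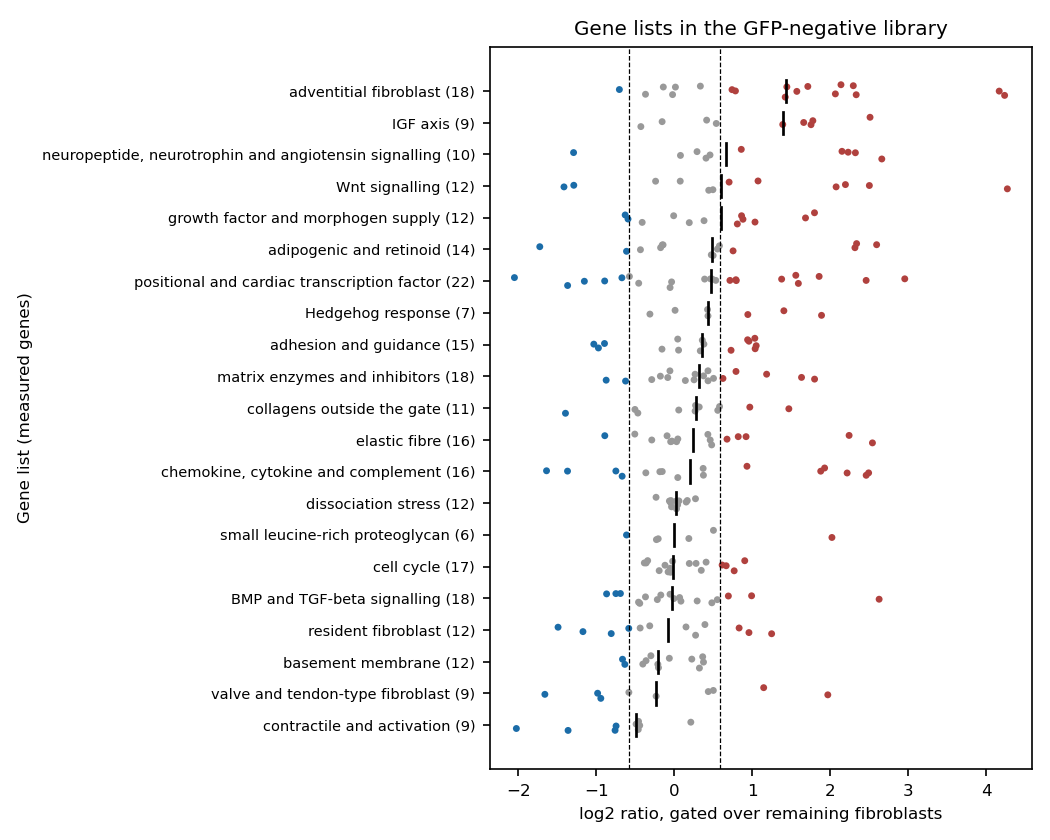
log2 ratio of gated over remaining fibroblasts (horizontal axis) for each measured gene of 21 lists (rows, number of measured genes in brackets); red points are at least 1.5-fold higher, blue points at least 1.5-fold lower, black bars are medians and dashed lines the 1.5-fold bounds. The adventitial list has its median at 1.43 and the contractile list at -0.49.

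Of 18 measured adventitial genes, 12 were higher and 1 was lower, with a median log2 ratio of 1.43. Pi16, a peptidase inhibitor of the cell surface, was at 211 CPM (95% Poisson interval 199 to 222) in the gated and 11.1 CPM (8.93 to 13.7) in the remaining fibroblasts, 18.8-fold higher. It was read in 42.3% of gated and 9.57% of remaining cells. After thinning each cell to 3000 UMIs those shares were 25.5% and 3.16%, and the share was 1.92% in macrophage-marker barcodes and 9.91% in endothelial-marker barcodes of the library. The share in the remaining fibroblasts lay between those of the 2 other kinds of barcode, whose median depths were 9004 and 11842.5 UMIs. Among remaining fibroblasts with 3 and with 4 UMIs of the gate genes, Pi16 was read in 19.2% and 16.3% without thinning.

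Scara5, a receptor for ferritin, was at 101 and 5.57 CPM, 17.9-fold higher, and its thinned share was 22.6% against 1.51%. Mfap5, a microfibril protein that binds elastic fibres, was at 1817 and 435 CPM, 4.18-fold higher. Igfbp6, a binding protein for insulin-like growth factor 2, was at 274 and 54.4 CPM. Cd248, the surface protein endosialin, was at 151 and 30.8 CPM, and Sema3c, a secreted guidance protein, at 97.0 and 22.0 CPM. Cd34 was at 420 and 157 CPM, and Cd55, which limits complement at the cell surface, at 46.5 and 14.2 CPM. The other 4 that were higher were Ackr3, Gfpt2, Adamts5 and Pcolce2, at 1.67-fold to 2.97-fold. Tnxb at 241 and 245 CPM, Fndc1, Creb5, Col14a1 and Dpt were between the bounds, and Anxa3 was lower at 79.3 and 129 CPM. Dpp4, a usual marker of these cells, did not reach the floor at 5.57 and 2.28 CPM. Most of the adventitial list was thus higher. The cells were chosen in part on Ly6a and Clec3b, themselves adventitial genes, so the list gives the label no separate support. Ly6a was read in a minority of the cells, and Dpp4 was under the floor of 10 CPM.

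Ntrk2 and Agtr2, the remaining genes of the marker set, were both higher. That set was chosen with earlier results of these data known, so their higher levels give the label no separate support. Ntrk2 encodes TrkB, the receptor of brain-derived neurotrophic factor, and was at 140 CPM (131 to 150) and 22.1 CPM (19 to 25.7), 6.32-fold higher. Agtr2, the type 2 receptor of angiotensin II, was at 254 CPM (241 to 267) and 50.8 CPM (45.9 to 56.0), 4.99-fold higher. Of the 10 measured genes of neuropeptide, neurotrophin and angiotensin signalling, 5 were higher and 1 lower, with a median of 0.66. Agt, the angiotensin precursor, was at 28.7 and 6.08 CPM, and Nrtn, the neurturin ligand of Ret receptors, at 17.0 and 3.8 CPM. Agtr1a, the type 1 angiotensin receptor, was at 14.2 and 7.85 CPM. Ace, the converting enzyme that makes angiotensin II, was the lower one at 18.2 and 44.7 CPM. Ligand precursor and both receptors of the angiotensin system were thus higher in the gated cells, and the converting enzyme was lower. The opioid receptors Oprd1, Oprm1 and Oprk1, which bind enkephalins, had 0 UMIs in both classes.

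Of 22 measured positional and cardiac transcription factors, 9 were higher and 5 lower, with a median of 0.47. Hox genes, which set position along the body axis, were among the higher ones. Hoxa5 was at 71.9 and 13.0 CPM (5.49-fold), Hoxa3 at 32.8 and 4.18 CPM (7.75-fold), Hoxb4 at 38.2 and 10.5 CPM and Hoxb2 at 41.1 and 15.8 CPM. The other 5 were Prrx2, Osr2, Twist2, Meis2 and Klf4, between 1.64-fold and 3.01-fold. Tbx20, a T-box factor of heart muscle and valve, was at 40.1 and 167 CPM, 4.14-fold lower. Gata4, a cardiac zinc finger factor, was at 25.2 and 65.3 CPM, and Tbx18, a factor of the epicardium and the head of the sinoatrial node, at 27.3 and 61.0 CPM. Shox2, needed for the node in mice, was at 9.83 and 18.3 CPM, and Foxp2 at 37.3 and 59.6 CPM. Tcf21 was at 132 and 298 CPM, 2.25-fold lower, and was read in 43.3% of gated and 70.3% of remaining cells.

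Of 9 insulin-like growth factor genes, 5 were higher and 0 lower, with a median of 1.39. Against remaining fibroblasts without Tcf21, 3 of the 9 were higher and the median was 0.42. The median was 0.46 with collagens at 2% and 0.43 with Gdf10 left out of the sum. The ligands Igf1 and Igf2 were at 437 and 167 CPM and at 359 and 105 CPM. The binding proteins Igfbp5, Igfbp3 and Igfbp2 were at 324 and 57.0, 534 and 159, and 108 and 34.2 CPM. The receptors Igf1r and Igf2r were between the bounds at 0.90-fold and 1.33-fold. Of the imprinted growth genes, a list drawn up after values were seen, 10 of 15 were higher and 2 lower. H19, a non-coding RNA from the Igf2 locus, was at 2588 and 522 CPM, Dlk1, a Notch-related membrane protein of fat precursors, at 3104 and 624 CPM, and Cdkn1c, an inhibitor of cell division, at 1135 and 318 CPM.

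Of 12 measured Wnt genes 6 were higher and 2 lower (median 0.60), and against remaining fibroblasts without Tcf21 4 were higher and 3 lower (median 0.13). Dkk2, a Wnt inhibitor, was at 23.1 and 1.14 CPM, Rspo3, which amplifies Wnt signals, at 26.0 and 4.56 CPM, and Wnt5a at 48.8 and 10.6 CPM. The inhibitors Sfrp2 and Frzb were lower, at 198 and 530 CPM and at 27.8 and 68.2 CPM. Of 7 Hedgehog response genes 3 were higher and 0 lower (median 0.43). These were the coreceptors Boc (61.9 and 16.7 CPM) and Cdon, and the target Gli1 (18.8 and 7.09 CPM).

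Of 18 genes of bone morphogenetic protein and transforming growth factor beta signalling, 3 were higher and 3 lower (median -0.03). Fst, which binds activins, was at 130 and 21.0 CPM, and Tgfbr3 and Bmp2 were also higher. Tgfb2, Inhba and Bmper were lower. Of 12 growth factors 6 were higher and 2 lower (median 0.59), with Angptl1 at 65.2 and 18.7 CPM and Fgf7 at 22.4 and 6.96 CPM. Mdk and Angptl2 were the lower ones.

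Of 16 chemokine, cytokine and complement genes, 6 were higher and 4 lower (median 0.21), and against remaining fibroblasts without Tcf21 5 were higher and 7 lower. C1s1 and C1ra, proteases that start the classical complement pathway, were at 92.7 and 16.5 CPM and at 90.1 and 19.4 CPM. Cxcl12, which draws CXCR4 cells, was at 366 and 99.7 CPM, Il33 at 74.7 and 19.6 CPM and Cxcl13 at 35.0 and 6.33 CPM, with Serping1 also higher. Cxcl1, which draws neutrophils, was lower at 370 and 1153 CPM, as were Tslp, Ccl11 and Ccl2.

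The matrix differed in part. Of 16 elastic fibre genes, 5 were higher and 1 was lower (median 0.24). Efemp1 was at 20.1 and 3.42 CPM, Emilin2 at 46.8 and 9.87 CPM and Lox, which cross-links elastin and collagen, at 333 and 176 CPM, with Ltbp2 and Fbln5 also higher. Loxl2 was lower, and elastin itself (Eln) was at 6534 and 6681 CPM. Of 11 collagens outside the gates 2 were higher (Col8a2 and Col5a3) and 1 lower (Col26a1), and of 12 basement membrane genes 0 were higher and 2 lower (Col4a1 and Col4a2). Of 6 small leucine-rich proteoglycans Podn was higher at 42.3 and 10.4 CPM and Ecm2 lower. Of 18 matrix enzymes and inhibitors 5 were higher and 2 lower. Serpinf1, an inhibitor of vessel growth, was at 983 and 318 CPM, Htra1 at 291 and 128 CPM and Timp3, which inhibits metalloproteases, at 79.1 and 145 CPM. Against remaining fibroblasts without Tcf21, Lox, Col5a3, Podn, Ecm2 and Htra1 were not past 1.5-fold in these directions. Lox and Htra1 were also not past it with Gdf10 left out of the sum.

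Of 9 measured contractile genes, 0 were higher, 4 were lower and 5 lay between the bounds, with a median of -0.49. Tagln, an actin-binding protein of smooth muscle, was at 82.1 and 334 CPM, 4.07-fold lower, and Acta2, smooth muscle actin, at 244 and 628 CPM. Tpm2 and Cnn1 were the others. With collagens at 2% Tpm2 was at a log2 ratio of -0.56, and against remaining fibroblasts with Tcf21 Cnn1 was at -0.19, both inside the bounds. The gates only cap Rgs5 and Actg2, and 4 gated and 13 remaining cells had at least 10 UMIs of the 9 smooth muscle or pericyte markers. The part of such cells in the contractile values was not tested. Of 9 valve and tendon-type genes 2 were higher and 3 lower (median -0.23), with Tnc, a matrix protein of valves and tendon, at 75.8 and 240 CPM.

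Of 12 resident fibroblast genes 3 were higher and 4 lower (median -0.08). Gsn, an actin-severing protein, was higher at 2847 and 1200 CPM, as were Smoc2 and Dcn. Meox1, a homeobox factor, was lower at 56.0 and 158 CPM, as were Tcf21, Vcam1 and Dpep1. Of 15 adhesion and guidance genes 6 were higher and 3 lower (median 0.36), with Epha3 at 48.5 and 23.4 CPM and Ncam1 at 34.4 and 70.5 CPM. Of 14 adipogenic and retinoid genes 4 were higher and 2 lower (median 0.48). Rbp4, the retinol carrier, was at 158 and 26.1 CPM and Adh1, an alcohol dehydrogenase, at 29.0 and 5.70 CPM, while Aldh1a2, which makes retinoic acid, was at 22.9 and 76.1 CPM. Retinol carrier and retinoic acid enzyme thus went in opposite directions. Against remaining fibroblasts without Tcf21, Aldh1a2 was at a log2 ratio of -0.47, inside the bounds. Of 17 cell cycle genes 4 were higher and 0 lower (median -0.02), and of 12 dissociation stress genes 0 were higher and 0 lower (median 0.03).

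Outside the lists, high ratios belonged to Ly6c1, Lrrn4cl, Tmem100, Aqp1, Calml4, Lbp and Nbl1 beside the genes already named. Ly6c1, a surface protein with near-identical paralogs whose reads may be shared, was at 69.9 and 2.28 CPM and was read in 16.2% of gated cells. After thinning its share was 9.90% in gated cells, 0.452% in remaining fibroblasts and 25.2% in endothelial-marker barcodes. Aqp1, a water channel, was at 58.1 and 7.21 CPM, and Nbl1, an antagonist of bone morphogenetic proteins, at 441 and 75.7 CPM. The lowest ratios were of Clca3a1 (16.7 and 109 CPM, 6.47-fold lower), Moxd1, Mbp, Vav3, Tbx20, Msc, Tagln, Rnd1, Lyz2 and Smad6. Mbp is a myelin protein and Lyz2 the lysozyme of macrophages. Without barcodes carrying markers of other cells their log2 ratios went from -2.31 to -0.15 and from -1.86 to -0.40. By sum, the macrophage markers as a list were higher in the gated cells, as given above, while Lyz2 was lower. The macrophage markers had cell medians of 0 in both classes, and the highest gated cell had 4287 CPM of them.

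The remaining fibroblasts were of unlike kinds, and the comparison depends on which of them is used. Of the 700, 492 had a UMI of Tcf21 and 208 had none, with median depths of 12572.5 and 7940.5 UMIs, and the part of depth in that split was not tested. Against the 208, 411 of 7722 genes were higher (5.32%) and 1001 lower (13.0%), and against the 492, 524 of 7450 were higher (7.03%) and 445 lower (5.97%). Pi16 was at 20 CPM in the 208 and 8.61 CPM in the 492, and Mfap5 at 423 and 438 CPM, so both were well below the gated cells in each. Ntrk2, in contrast, was at 83.6 CPM in the 208 and 4.71 CPM in the 492, beside 140 CPM in the gated cells. Fst was at 76.7 and 5.20 CPM and Hoxa5 at 44.1 and 4.23 CPM in the same order. Against the cells without Tcf21, Ntrk2 was 1.67-fold, Fst 1.69-fold and Hoxa5 1.62-fold higher, and Pi16 10.4-fold. Of 19 adventitial genes 10 were higher and 0 lower against those cells (median 0.84). The neuropeptide, neurotrophin and angiotensin list had its median at -0.41 there.

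**Figure D3:**
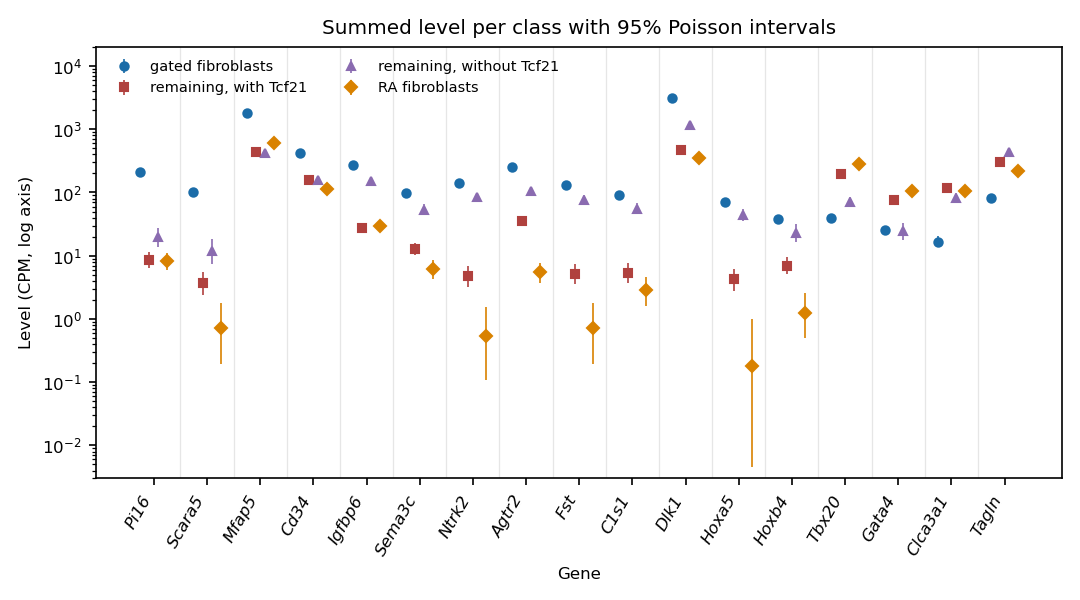
Level of 17 genes (vertical axis, CPM on a log axis, with 95% Poisson intervals) in gated fibroblasts, in remaining fibroblasts with and without a Tcf21 UMI, and in all fibroblasts of RA. Pi16, Scara5 and Mfap5 stand highest in the gated cells, while Ntrk2, Fst and Hoxa5 are also read in the remaining cells without Tcf21 and are near 0 in RA.

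Some genes that were high in the gated cells were scarce in the fibroblasts of RA. The genes given are a choice and do not stand for all genes that were higher in the gated cells. Ntrk2 had 3 UMIs (0.53 CPM), Hoxa5 had 1 UMI (0.18 CPM), Fst 4 UMIs (0.71 CPM) and Penk 2 UMIs (0.35 CPM) over the 354 cells. Agtr2 was at 5.49 CPM and Scara5 at 0.71 CPM. Tcf21 was at 909 CPM and Tbx20 at 283 CPM, above both classes of GFP-negative. RA and GFP-negative are single libraries that differ in sorting and title, so tissue, sort and library cannot be told apart in these values. In RA 46.6% of fibroblasts had at least 10 UMIs of the 8 cardiomyocyte markers, against 2.57% of the 506 gated cells.

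The gated cells were grouped by their leading gate gene. By the gate gene with the most UMIs, 247 cells were led by Clec3b (48.8%), 178 by Gdf10 (35.2%), 40 by Penk and 23 by Ly6a, and 18 were tied. Over the 506 cells, Spearman's rho was 0.52 between Ly6a and Clec3b, 0.39 between Gdf10 and Penk and -0.50 between Clec3b and Gdf10. These describe cells of 1 library chosen on the sum of the same 4 genes, and a choice on a sum sets its parts against each other, so nothing is read from them. Gdf10 was read in 58.3% of Clec3b-led cells and Clec3b in 52.8% of Gdf10-led cells, so most cells of either kind held both.

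Genes outside the gate also differed between the Clec3b-led and the Gdf10-led cells. Of 7427 genes, 520 were at least 1.5-fold higher in Clec3b-led cells (7.0%) and 671 higher in Gdf10-led cells (9.03%). Of 18 adventitial genes 11 were higher in Clec3b-led cells and 0 in Gdf10-led cells (median 0.85). Pi16 was at 276 and 65.4 CPM, Cd55 at 68.9 and 9.12 CPM and Cd34 at 518 and 248 CPM. Tcf21 was also higher in the Clec3b-led cells, at 206 and 54.2 CPM, and was read in 62.8% of them (56.4% to 68.8%) against 26.4% (20.1% to 33.5%). Meox1 was at 87.5 and 15.5 CPM and Frzb at 47.8 and 5.36 CPM. The Clec3b-led cells thus carried more of the adventitial list and more Tcf21, which is a resident gene, at the same time. Clec3b is itself an adventitial gene, so the list gives this grouping no separate support. The median gate sum was 19 UMIs in Clec3b-led and 14 UMIs in Gdf10-led cells, and its part in these differences was not tested.

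In the Gdf10-led cells the neurotrophin receptor, activin binder and Hox genes were higher. Ntrk2 was at 229 CPM against 93.4 CPM in Clec3b-led cells, Fst at 212 against 62.1 CPM and Hoxa5 at 121 against 39.2 CPM. Of 28 transcription factors 18 were higher in Gdf10-led cells and 2 in Clec3b-led cells (median -0.73). Igfbp3 was at 868 against 307 CPM and Tgfbi, a matrix adapter, at 262 against 72.2 CPM. Fmod, a collagen-binding proteoglycan of tendon, was at 76.1 against 6.73 CPM. Agtr2 at 240 and 230 CPM and Dlk1 at 3151 and 2850 CPM were within the bounds. The dissociation stress list moved with this split, with 9 of 12 genes higher in Gdf10-led cells (median -0.73), such as Fos at 3151 against 1877 CPM and Hspa1a at 3100 against 1282 CPM. The part of that list in the other differences was not tested. Median depth was 12995 UMIs in Clec3b-led and 9823.5 UMIs in Gdf10-led cells. Markers of other cells moved with the split too. In Clec3b-led and Gdf10-led cells the mesothelial markers summed to 38.0 and 109 CPM, with Msln, Krt8 and Upk1b at 0 in both, and the smooth muscle or pericyte markers to 154 and 244 CPM. The macrophage markers summed to 79.3 and 31.6 CPM, with cell medians of 0 in both and the highest Clec3b-led cell at 4287 CPM. The endothelial markers summed to 56.6 and 30.0 CPM. The erythroid markers summed to 11294 and 3420 CPM, with cell medians of 2824 and 2934 CPM. Their part in the differences was not tested.

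Within the gated cells, Pi16 and Mfap5 had similar summed levels with and without Tcf21, while Scara5, Ntrk2, Fst and Hoxa5 were lower where Tcf21 was read. In the 219 gated cells with a UMI of Tcf21 (median depth 13130 UMIs) and the 287 without (10111 UMIs), Pi16 was at 212 and 209 CPM and Mfap5 at 1758 and 1874 CPM. Scara5 was at 32.6 and 167 CPM, Ntrk2 at 44.3 and 233 CPM, Fst at 40.6 and 216 CPM and Hoxa5 at 32.6 and 110 CPM. The heart factor Tbx20 went with Tcf21, at 70.3 and 11 CPM. Pi16 was thus read on both sides of the resident marker. The gated cells with the most Pi16 held 100 and 70 UMIs where Tcf21 was read, and 66 UMIs where it was not. The part of such cells in the summed Pi16 levels was not tested.

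**Figure D4:**
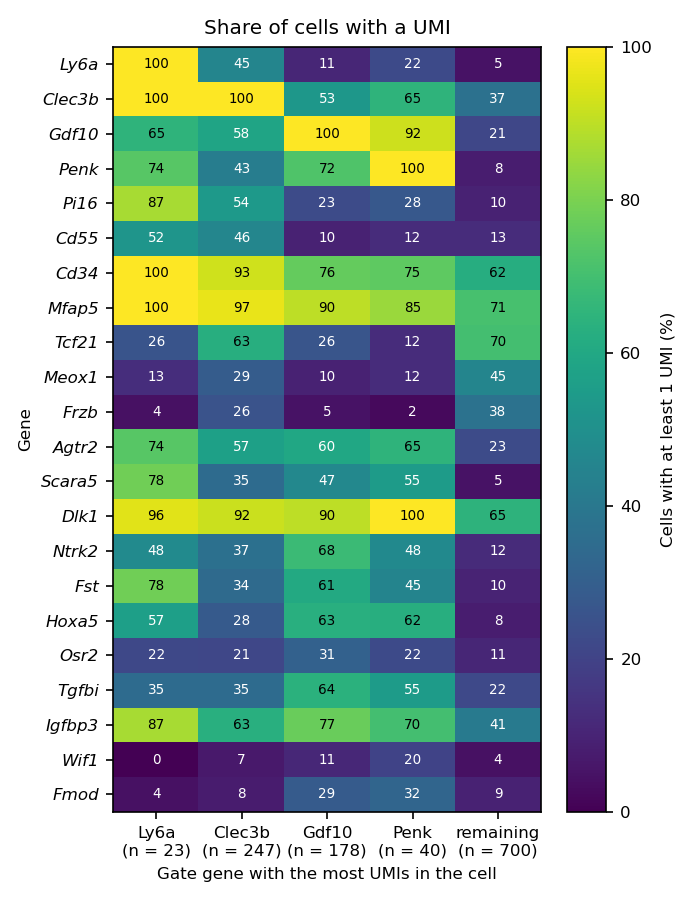
Share of cells with at least 1 UMI (percent, colour and number) of 22 genes (rows) in gated cells grouped by the gate gene with the most UMIs, and in the remaining fibroblasts (columns, n is cells). Pi16, Cd55 and Tcf21 are read more often in Clec3b-led than in Gdf10-led cells, and Ntrk2, Fst and Hoxa5 more often in Gdf10-led cells; the first 4 rows were used for the grouping.

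The 2 small groups differed from both. Tcf21 was read in 26.1% of the Ly6a-led and 12.5% of the Penk-led cells. The 23 Ly6a-led cells were highest of the 4 groups for several genes, with Pi16 at 640 CPM, Mfap5 at 4832 CPM, Igfbp5 at 1257 CPM and Ly6c1 at 539 CPM. A single Ly6a-led cell held 66 UMIs of Pi16, and the next held 22. The median gate sum was 68 UMIs in Ly6a-led cells, against 19 in Clec3b-led, 14 in Gdf10-led and 19 in Penk-led cells. The part of that sum was not tested. Elastin in the Ly6a-led cells was the lowest of the 4, at 1339 CPM against 5750 CPM in Clec3b-led cells. The 40 Penk-led cells held genes of cartilage-type matrix, a list drawn up after values were seen. Wif1, a secreted Wnt inhibitor, was at 293 CPM, Mia at 154 CPM and Fmod at 136 CPM. Those levels came from few cells, since Wif1 and Mia were each read in 8 of the 40. Col2a1, the cartilage collagen, had 38 UMIs over all gated cells, of which 57.9% were in a single cell, and was at 6.22 CPM against 50.8 CPM in the remaining fibroblasts.

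Over steps of the gate sum, 7 genes are described here. From cells with no UMI of the 4 genes (n = 311) through sums of 5 to 9 (n = 126), 10 to 19 (n = 178) and 20 or more (n = 202), Pi16 was at 8.80, 55.5, 84.3 and 389 CPM. Dlk1 was at 396, 1513, 2656 and 4306 CPM and Scara5 at 3.46, 28.8, 98.9 and 142 CPM. Clca3a1 went the other way, at 151, 41.8, 12.1 and 6.38 CPM, and Tbx20 was at 185, 61.0, 40.9 and 28.1 CPM. Ntrk2 did not climb past the middle step, at 16.7, 72.7, 169 and 156 CPM, and Tcf21 was at 107 CPM in both upper steps after 322 and 214 CPM.

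**Figure D5:**
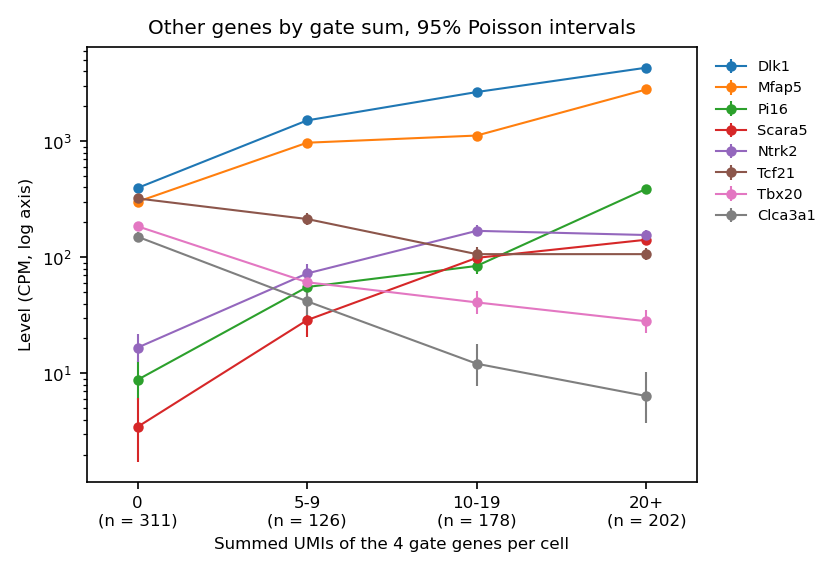
Level of 8 genes outside the gate (vertical axis, CPM on a log axis, 95% Poisson intervals) by the summed UMIs of the 4 gate genes per cell (horizontal axis, n is cells). Pi16 climbs from 8.80 to 389 CPM and Clca3a1 goes from 151 to 6.38 CPM.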

How the data were processed

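The deposited matrices of the 3 10x Genomics libraries hold unnormalized UMI counts made by the authors, all whole numbers. Cell Ranger and mm9 are named per the submitters' processing notes, with no version. Each matrix held 28001 features. Promoter windows came from RefSeq on GRCm38.p6, a build that differs from mm9, and no coordinate was taken from the counts.

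Barcodes with at least 500 genes were gated as described. Doublets were not called and stay in. UMIs were summed per class and scaled to CPM, and 0.5 UMIs were added to each sum before a ratio. Levels have exact Poisson intervals, shares exact Clopper-Pearson intervals at 95%, and all cover counting error only. Genes were read where the mean of the 2 class levels was at least 10 CPM. Named genes were the 15 highest and 10 lowest ratios at 20 CPM and 10% of cells, the 4 largest per list, the members needed for counts, and the markers; 1 gene of that rule is not reported here. Other genes named were chosen after their values were seen. The gated cells and the lists were chosen with earlier results of these data known. Of 456 list and marker genes, Ccl19, Cebpd, Ltbp4 and Vegfd were not found under 1 ID. The reference barcodes had at least 10 UMIs of Pecam1 and Cdh5 (112 endothelial) or of C1qa and C1qb (105 macrophage) with collagens under 1%, a choice made after seeing the data. The ratios and intervals were tested on simulated data. Python 3.11.15, numpy 2.4.6, scipy 1.17.1 and pandas 2.3.3 were used. Comparisons planned with the gated cells of RA were not made, since RA had 33 such cells and 50 were required.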

Additional observations from a re-analysis of the deposited data

How the results depend on the processing

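Of 21 list medians, 5 were past 1.5-fold and 1 of them, the adventitial list, stayed past it in each alternative run. Of 100 named genes with alternatives, 90 were past 1.5-fold and 63 of them stayed past it in each alternative run. Genes that did not stay past it against remaining fibroblasts without Tcf21 included Aldh1a2, Col5a3, Htra1, Inhba, Lox, Nrtn, Podn and Tgfbr3. With gates of 3 and of 8 UMIs the share of gated barcodes was 20.5% and 14.2% in GFP-negative, 4.39% and 1.16% in RA, and 2.45% and 1.0% in GFP-positive. A gate of 0.05% of a cell's UMIs gave 0.925% in RA and 0.970% in GFP-positive. Collagens at 2% gave 11.5% in GFP-negative and 0.273% in GFP-positive. Removing barcodes with markers of other cells gave 20.3%, 1.33% and 0.246% in GFP-negative, RA and GFP-positive. In alternatives chosen after seeing the data, a sum without Clec3b gave 11.5%, 0.231% and 0.212%, and without Gdf10 12.6% in GFP-negative. The count of higher genes was 648 at a floor of 5 CPM, 120 at 50 CPM and 203 at 2-fold. The count of lower genes was 124 at 50 CPM, 129 at 2-fold, 809 with the mean over cells and 1001 against remaining fibroblasts without Tcf21. The share of called genes that were higher was 47.8%, and 34.1%, 29.1% and 61.1% with the mean over cells, without Tcf21 and at 2-fold. Signs turned for the cell cycle genes Ccnb1 (-0.10), Cenpf (-0.36), Nusap1 (-0.53) and Ube2c (-0.051) at 0.05%, and for Ccnb1 (-0.078), Nusap1 (-0.031) and Wif1 (-0.55) with collagens at 2%. Against cells without Tcf21 they turned for Cenpf (-0.079), Ecm2 (0.23), Epha3 (-0.39), Fmod (-0.47), Igfbp2 (-0.23) and Pdgfa (-0.39), and Lyz2 was at 0.76 with 3 UMIs. Medians turned for the neuropeptide list (-0.41, without Tcf21) and the growth factor list (-0.0096 at 50 CPM). Without Clec3b in the sum the adventitial median was 0.74. The causes were not tested. No paired analysis was possible because each group was 1 library and no result came from a test.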

Other observations

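Krtdap, a gene known from differentiating skin keratinocytes, was read in 45 of the 506 gated fibroblasts (135 UMIs, 22.1 CPM) and had 2 UMIs in the 700 remaining ones. The cell with the most held 9.63% of those UMIs, so the reads were spread over cells. In RA the 27 UMIs of Krtdap in fibroblasts were all in the 33 gated cells, and the 55 gated cells of GFP-positive held 243. Those 55 cells had 1100934 UMIs in all, against 6105535 in the 506 cells, so the level of Krtdap was higher in the 55. The mesothelial markers summed to 5263 CPM in the same 55 cells. Krtdap was singled out after its values were seen. Akr1c18, a steroid reductase, had 120 UMIs in 6 gated cells, of which 57.5% were in a single cell, and 1 UMI in the remaining fibroblasts.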
